A study of Mus musculus with 12 samples.

Results

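Genes of mitochondrial oxidative phosphorylation were examined in 3T3-L1 adipocytes, made from mouse preadipocytes in culture with a hormone cocktail. Members were taken by name from the array annotation: symbols that begin with Ndufa, Ndufb, Ndufc, Ndufs or Ndufv, the symbols Sdha to Sdhd, and those that begin with Uqcr, Cox4 to Cox8, or Atp5. The pattern matched 93 symbols, of which Cox7a1 and Cox8b were left out by rule. The remaining 91 genes had 1 transcript cluster each, of 22104 clusters on the array, and the name rule itself uses no measured value. By name, 46 belong to complex I, 4 to complex II, 8 to complex III, 16 to complex IV and 17 to complex V. Of the 91, 75 code for structural subunits of widely used complexes. A further 9 serve assembly: the 8 Ndufaf factors of complex I, and Cox7a2l, which joins complexes III and IV into supercomplexes. Another 6 are isoforms best known from muscle, testis, lung or hypoxic cells (Cox4i2, Cox6a2, Cox6b2, Cox7b2, Cox8c and Ndufa4l2). The last, Ndufb4b, is by name a copy of Ndufb4, and signals of such a pair cannot be told apart with certainty. Ndufa4 is counted under complex I by its symbol, although its protein is now assigned to complex IV.

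The series holds 12 arrays, 1 for each of 4 treatments at each of 3 passages, so n = 3 arrays per treatment and n = 4 per passage. The treatments were alpha-linolenic acid (ALA, a plant omega-3 fatty acid) at 50 µM, ALA at 50 µM with a delta-6-desaturase inhibitor at 5 µM, the inhibitor alone at 5 µM, and a vehicle control of ethanol and DMSO. Delta-6-desaturase starts the conversion of ALA into longer omega-3 fatty acids. All groups received the differentiation cocktail and then insulin at 5 µg/ml, were treated throughout, and gave RNA on day 8. The labels state albumin (2%) for the medium with ALA and solvents for the control, and whether these were matched between groups is not stated there. All cells came from 1 line, and the labels number the arrays of a treatment by cell passage (6, 7 or 8). Nothing in the labels says whether cultures of different treatments at 1 passage were started together. A passage difference therefore cannot be told apart from any other difference between the 3 sets of 4 arrays, and p-values measure the spread between cultures of this line.

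Oxidative phosphorylation passes electrons from NADH (complex I) and succinate (complex II) through ubiquinone, complex III and cytochrome c to oxygen at complex IV. Complexes I, III and IV pump protons across the inner mitochondrial membrane, and complex V, the ATP synthase, uses the return flow to make ATP. Most subunits are made from nuclear genes and are joined in the mitochondrion to a small core made from mitochondrial DNA. In white adipocytes, mitochondria multiply during differentiation and supply energy and carbon for fat synthesis. The genes of mitochondrial DNA (0 of 13 matched a named cluster) were not analysed here.

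Nuclear respiratory genes are known to share binding sites for NRF1, GABP (also called NRF2), YY1 and the estrogen-related receptors (ERR) in their promoters, so the 250 bases before the annotated start were searched for their core letters on both strands. The windows came from RefSeq (GRCm38.p6) and were found for 75 of 91 members and for 27025 genes in all; a gene with several starts counted if any of its windows held the letters. The NRF1 letters, GCGCA and GCGC with 1 base of any kind between them, stood in 14 of 75 members (18.7%) against 4.2% of all genes. The GABP letters CCGGAAG stood in 14 members (18.7%) against 7.8% of all genes. The YY1 letters AANATGGC stood in 7 members (9.3%) against 4.5%, and the ERR letters AAGGTCA in 5 members (6.7%) against 4.7%. At least 1 of the 4 motifs stood in 33 members (44.0%), against 19.1% of all genes, and no motif is part of another. A match shows letters and no bound factor. The 3 windows below belong to members with lower signal at later passages, and are given 5′ to 3′ on the minus strand, with motif letters in capitals. Ndufb4, a membrane-arm subunit of complex I, is shown at chr16:37654369-37654618 because its window held 3 NRF1 matches and 1 ERR match.
Ndufb4: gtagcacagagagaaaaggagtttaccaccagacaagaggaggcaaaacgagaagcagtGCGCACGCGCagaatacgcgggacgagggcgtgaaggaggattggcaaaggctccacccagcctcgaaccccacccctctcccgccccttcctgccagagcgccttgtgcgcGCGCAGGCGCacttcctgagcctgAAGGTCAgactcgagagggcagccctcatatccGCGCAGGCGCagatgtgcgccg
Atp5h, which codes for subunit d in the stalk of the ATP synthase, is shown at chr11:115419920-115420169 because it held 1 NRF1 match and 1 GABP match.
Atp5h: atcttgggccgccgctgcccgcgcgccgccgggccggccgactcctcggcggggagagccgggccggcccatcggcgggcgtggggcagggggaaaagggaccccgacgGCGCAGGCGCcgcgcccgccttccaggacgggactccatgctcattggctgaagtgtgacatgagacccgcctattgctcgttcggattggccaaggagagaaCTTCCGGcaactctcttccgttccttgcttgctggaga
Ndufa6, a small matrix-side subunit of complex I, is shown at chr15:82354292-82354541 as a window in which none of the 4 motifs occurred.
Ndufa6: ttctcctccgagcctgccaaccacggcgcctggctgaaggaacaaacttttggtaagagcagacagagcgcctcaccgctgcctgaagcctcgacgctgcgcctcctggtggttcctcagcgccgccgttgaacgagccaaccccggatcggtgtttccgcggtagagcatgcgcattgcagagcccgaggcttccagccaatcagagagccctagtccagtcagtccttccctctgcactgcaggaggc

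The values are log2 signals, on which 1 unit is a doubling of linear signal. Signals of different genes are not compared as amounts, since each cluster has its own probes. Of the 91 members, 84 lay above the array's median signal on all 12 arrays. Cox6b2, Cox7b2 and Cox8c, isoforms known from testis, lay below it on all 12. The other 4 (Ndufa4l2, Ndufaf2, Ndufaf5 and Cox4i2) lay above it on 2 to 7 arrays. All 14 measured adipocyte markers (of 15 listed) lay above the median on every array, while all 5 measured macrophage markers (of 6) and all 5 endothelial markers lay below it on every array. The array of ALA at passage 7 differed from the rest. The SD of its signals over clusters was 2.25, against 2.32 to 2.39 on the other 11 arrays, and it correlated with them at 0.976 to 0.987, against 0.989 to 0.994 among those 11. Some of the results that rest on it are also given without it, but not all of them.

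Across the 12 arrays, the members were highest together at passage 6. The mean signal of the 91 genes at passage 6 was 9.68 on the ALA array, 9.69 with ALA plus inhibitor, 9.70 with inhibitor and 9.66 in control. At passage 7 it was 9.47, 9.60, 9.60 and 9.48 in the same order of treatments, and at passage 8 it was 9.55, 9.55, 9.52 and 9.57. The 4 arrays of passage 6 thus all lay above the 8 arrays of the later passages, and the lowest means were those of ALA and control at passage 7. Averaged by passage, the means were 9.68 ± 0.02 at passage 6, 9.54 ± 0.07 at passage 7 and 9.55 ± 0.02 at passage 8 (log2 signal, SD, n = 4 each). By treatment they were 9.57 ± 0.11 with ALA, 9.61 ± 0.07 with ALA plus inhibitor, 9.61 ± 0.09 with inhibitor and 9.57 ± 0.09 in control (log2 signal, SD, n = 3 each), all within each other's SD. Each of these SDs spans the 3 passages and so includes the passage difference, which makes it no measure of treatment differences within a passage. The number of genes above their own mean was 70 to 82 of 91 on the arrays of passage 6, 12 to 53 on those of passage 7 and 26 to 38 on those of passage 8.

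**Figure D1:**
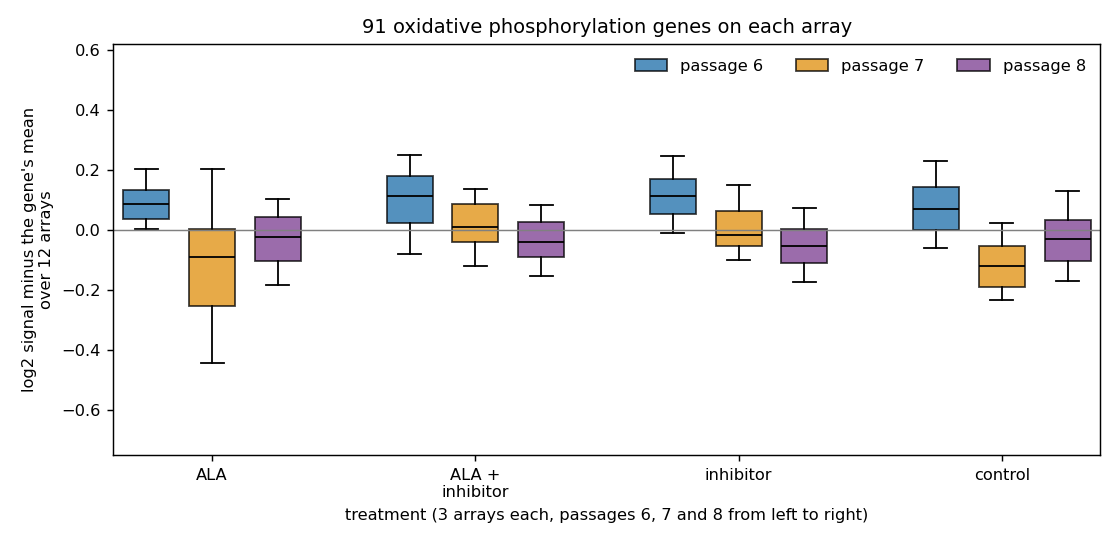
Deviation of the 91 oxidative phosphorylation genes from their own mean over 12 arrays (log2 signal, vertical axis), 1 box per array, grouped by treatment and coloured by passage. Boxes span the quartiles with the median as a line and whiskers run to the 10th and 90th percentiles; the medians are 0.07 to 0.11 on the 4 arrays of passage 6 and -0.12 to 0.01 on the other 8.

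Between passage 8 and passage 6, 80 of 91 members had a lower mean signal and 11 a higher one, where 52.9% of all 22104 clusters were lower. The median member difference was -0.12 on the log2 scale, against -0.01 over all clusters. In limma's fit with passage and treatment, 1 member passed an adjusted p under 0.05 (1.91% of all clusters did), namely Cox6a2, which fell. At an unadjusted p under 0.05, 25 members were lower and 0 were higher, beside 6.87% and 7.78% of all clusters. Values did not overlap in 32 members, with all 4 arrays of passage 8 below all 4 of passage 6 (5.35% of all clusters), and 0 members were separated the other way (7.13%). In 39 members passage 8 was the lower in each of the 4 treatments (12.5% of all clusters), and in 1, Atp5g1, it was the higher in each (13.4%). Within the treatments the median difference was -0.12 with ALA, -0.15 with ALA plus inhibitor, -0.18 with inhibitor and -0.09 in control. In bulk RNA, fewer cells of a type and less RNA per cell cannot be told apart.

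Between passage 7 and passage 6, 82 members were lower and 9 higher (48.9% of all clusters were lower), with a median log2 difference of -0.13, against 0.0044 over all clusters. No member passed an adjusted p under 0.05 in limma (0% of all clusters did). At an unadjusted p under 0.05, 23 members were lower (4.47% of all clusters) and 0 higher (4.82%). Passage 7 lay wholly below passage 6 in 25 members (2.43% of all clusters) and was lower within each treatment in 53 (9.15%). Within treatments the median difference was -0.19 with ALA, -0.08 with ALA plus inhibitor, -0.11 with inhibitor and -0.17 in control. Without the ALA array of passage 7 the median was -0.12 and 84 members were lower.

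Over all 91 genes the median differed more in the step to passage 7 than in the next one, but the complexes were not alike in this. Between passage 8 and passage 7, 51 members were higher and 40 lower (46.5% of all clusters were higher), the median log2 difference was 0.0192, and 0 members passed an adjusted p under 0.05 in limma (0.864% of all clusters did) or an unadjusted p under 0.01 (7.08%). At an unadjusted p under 0.05 there were 7 members, 5 higher and 2 lower, beside 19.9% of all clusters. In complex IV 12 of 16 members were lower (median -0.11, beside -0.10 for passage 7 against 6), while in complex V 14 of 17 were higher (median 0.09). The 6 restricted isoforms, which apart from Ndufa4l2 also count in complex IV, were all lower (median -0.25). Within treatments the median ran from -0.14 (inhibitor) to 0.02 (control) in complex IV, and from -0.0014 (ALA plus inhibitor) to 0.16 (ALA) in complex V. For the isoforms it ran from -0.52 with ALA, where the deviating array of passage 7 enters, to 0.0079 with ALA plus inhibitor. The direction over all members depended on the processing: 61 members were higher with arrays centred on their medians, 36 after quantile normalization and 38 without the ALA array of passage 7. The mean was highest at passage 6 in 73 of 91 genes, where 29.5% of all clusters had their highest mean there. It was lowest at passage 7 in 51 genes and at passage 8 in 38. As deposited, centred on array medians or quantile normalized, 78 to 85 members were lower at passage 7, and 79 to 81 at passage 8, than at passage 6.

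**Figure D2:**
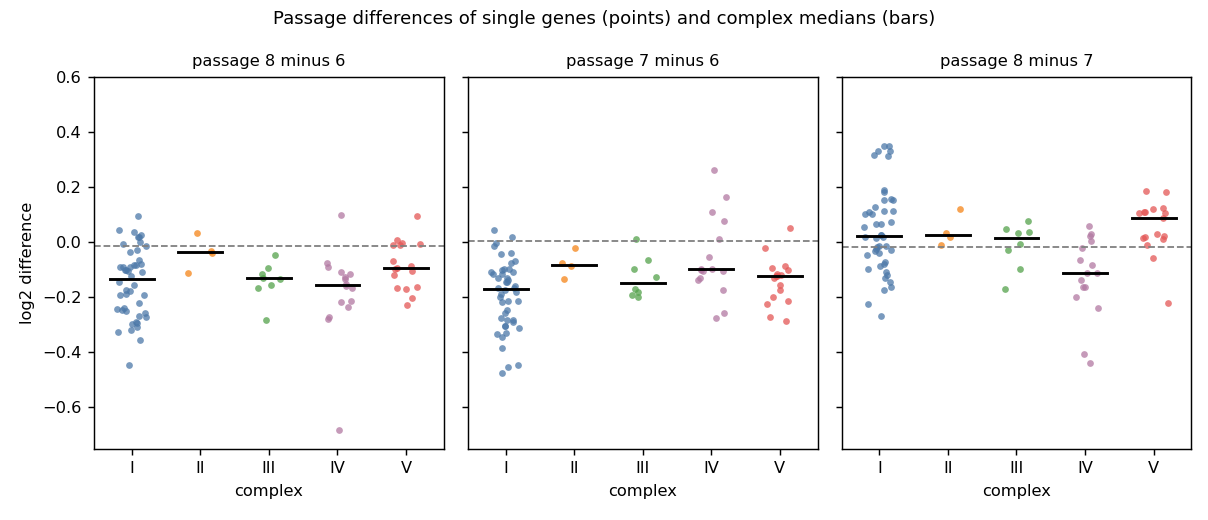
Differences in mean log2 signal between passages (vertical axis) for each gene (points) by complex (horizontal axis), with complex medians as bars and the median of all 22104 clusters as a dashed line; the panels show passage 8 minus 6, 7 minus 6 and 8 minus 7. Points lie mostly below 0 in the first and second panels, with 80 and 82 of 91 genes lower, and on both sides of it in the third, with 51 genes higher.

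Complex I, which takes electrons from NADH, held 39 of 46 members lower at passage 8 than at passage 6 (median -0.13) and 44 lower at passage 7 (median -0.17). Ndufa6 had log2 signals of 9.70, 9.72, 9.72 and 9.73 at passage 6 (ALA, ALA plus inhibitor, inhibitor and control), 9.14, 9.59, 9.70 and 9.32 at passage 7, and 9.09, 9.29, 9.43 and 9.28 at passage 8. The 4 arrays of passage 6 were nearly equal, the inhibitor array of passage 7 came level with them, and all arrays of passage 8 lay below. The difference between passage 8 and passage 6 was -0.44 ± 0.10 (log2, SE; limma adjusted p = 0.0593).
Ndufb4, whose window is printed above, had 10.88, 10.97, 10.99 and 10.88 at passage 6, 10.67, 10.83, 10.77 and 10.47 at passage 7, and 10.53, 10.57, 10.63 and 10.58 at passage 8 in that order. Every array of passage 8 lay below every array of passage 6, by -0.35 ± 0.08 on average (log2, SE; adjusted p = 0.0725). Its copy Ndufb4b differed by -0.33, and Ndufb8, another membrane-arm subunit, by -0.29.

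Among the core subunits that carry the redox groups of complex I, Ndufs7, which holds an iron-sulfur cluster next to the quinone site, differed by -0.31 between passage 8 and passage 6 (log2; unadjusted p = 0.00526). Ndufs1, the large iron-sulfur subunit, had log2 signals of 9.84, 9.95, 9.90 and 9.92 at passage 6, 9.76, 9.60, 9.61 and 9.54 at passage 7, and 9.72, 9.70, 9.69 and 9.82 at passage 8. Both later passages lay wholly below passage 6, and the difference at passage 7 was -0.28 ± 0.08 (log2, SE; unadjusted p = 0.00886). Ndufv1, which binds NADH and the flavin, kept within 11.29 and 11.49 on all 12 arrays. Its partner Ndufv2 stood low on 1 array: it read 9.02 on the ALA array of passage 7, against 9.66 to 10.15 on the other 11. Ndufab1, the mitochondrial acyl carrier protein, likewise read 8.96 there and 9.48 to 9.93 elsewhere.

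The accessory subunit Ndufs4, whose loss causes Leigh-like disease in mice, had log2 signals of 8.67, 8.63, 8.58 and 8.42 at passage 6, 7.87, 8.34, 8.29 and 8.00 at passage 7, and 8.32, 8.27, 8.37 and 8.27 at passage 8 (ALA, ALA plus inhibitor, inhibitor and control). Passage 6 was above the other 8 arrays without overlap, and the lowest value was the ALA array of passage 7. The difference between passage 7 and passage 6 was -0.45 ± 0.11 (log2, SE; unadjusted p = 0.00166, adjusted p = 0.459), the smallest p of the 91 in that comparison. Ndufa1 (-0.47), Ndufb3 (-0.45) and Ndufa5 (-0.30) also had an unadjusted p under 0.01 there, and passage 7 was lower in each treatment for all 3 and for Ndufs4. On the ALA array of passage 7 Ndufa1 read 7.04, its lowest of 12. Without that array 4 members had an unadjusted p under 0.01 (1.48% of all clusters) in place of 6 (2.09%). The value of Ndufa1, passage 7 against passage 6, was then -0.32 (unadjusted p = 0.0133), that of Ndufa5, passage 7 against passage 6, was -0.27 (unadjusted p = 0.0123), and that of Ndufs4, passage 7 against passage 6, was -0.35 (unadjusted p = 0.00388). In complex I, 5 members had an unadjusted p under 0.01 between passage 8 and passage 6 (all lower, of 7 members in all; 5.95% of clusters), and 5 between passage 7 and passage 6 (all lower, of 6 members in all; 2.09%).

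Of the 9 genes for assembly, 8 were lower at passage 8 than at passage 6 (median -0.19) and 9 at passage 7 (median -0.21), with none past the adjusted threshold. Ndufaf7, an assembly factor of complex I, differed by -0.27 at passage 8 (log2; unadjusted p = 0.0204). Ndufaf4 was the exception at passage 8, at 0.10 (log2) above passage 6, and was -0.22 below it at passage 7. The within-treatment medians of these 9 at passage 8 ran between -0.25 with ALA plus inhibitor and 0.03 in control, so the direction did not hold in every treatment. At passage 7 they were -0.36 with ALA, whose array stood apart, -0.03 with ALA plus inhibitor, -0.04 with inhibitor and -0.20 in control.

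Complex II, which also belongs to the citric acid cycle, differed least. Sdhb, its iron-sulfur subunit, was -0.11 (log2) at passage 8 and -0.13 at passage 7, with SEs of 0.11 each, and its log2 signals ran from 9.81 to 10.40 over the 12 arrays. Sdha, the flavin subunit, and the membrane anchors Sdhc and Sdhd differed by -0.04 to 0.03 between passage 8 and passage 6. In complex III, all 8 members were lower at passage 8 (median -0.13) and 7 at passage 7 (median -0.15). Uqcrfs1, the Rieske iron-sulfur protein, had 9.85, 9.82, 9.73 and 9.76 at passage 6, 9.60, 9.63, 9.65 and 9.52 at passage 7, and 9.68, 9.64, 9.69 and 9.69 at passage 8. Neither later passage overlapped passage 6, and the difference at passage 7 was -0.19 ± 0.08 (log2, SE; unadjusted p = 0.0332). Uqcrc1 and Uqcrc2, the core proteins, were also lower on every array of passage 8 than on any of passage 6. Uqcrh, the hinge protein that lies by cytochrome c1, was an exception at passage 7 (0.01 higher) and was -0.16 at passage 8 (log2).

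In complex IV, cytochrome c oxidase, 15 of 16 members were lower at passage 8 (median -0.15) and 11 at passage 7 (median -0.10). Cox6a2, the isoform of subunit VIa best known from heart and skeletal muscle, had log2 signals of 8.80, 8.66, 8.91 and 8.65 at passage 6, 8.92, 8.05, 8.40 and 8.55 at passage 7, and 8.01, 8.02, 8.20 and 8.08 at passage 8. The arrays of passage 8 lay below all of passage 6, while passage 7 reached from the one group to the other. It fell by 0.68 ± 0.14 on the log2 scale between passage 8 and passage 6 (SE; limma adjusted p = 0.0378). The call ended (adjusted p 0.0503 to 0.134) when any 1 of 10 of the 12 arrays was left out, the ALA and ALA plus inhibitor arrays of passage 7 being the exceptions, and after quantile normalization (adjusted p = 0.0502). After quantile normalization 1 other member was called in its place (limma adjusted p = 0.0426), beside 405 of all 22104 clusters. With an intensity trend in the variance prior, 14 members were called, all lower, and with array weights 3. Of all 22104 clusters, 1163 and 690 were called in the same order.
The widely expressed isoform Cox6a1 differed by -0.13 over the same passages, with values of 12.27 to 12.52 on all 12 arrays. Of the 6 muscle genes listed as markers, 1 lay above the array median on every array and 3 below it on every array, and 0 of 6 passed the adjusted threshold.

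Cox5a, an early-joining subunit, was the 1 member with an unadjusted p under 0.01 at both later passages. It had 9.42, 9.39, 9.53 and 9.65 at passage 6, 9.11, 9.29, 9.32 and 9.24 at passage 7, and 9.15, 9.18, 9.27 and 9.29 at passage 8. All 8 later arrays lay below all 4 of passage 6, by -0.26 ± 0.08 at passage 7 and -0.28 ± 0.08 at passage 8 (log2, SE; adjusted p = 0.459 and 0.131). Cox4i1, the common isoform of subunit IV, and Cox5b were also separated between passage 8 and passage 6, at -0.22 and -0.12 (log2). The 5 restricted isoforms other than Cox6a2 had higher means at passage 7 than at passage 6, by 0.045 to 0.26 on the log2 scale, none with an unadjusted p under 0.05. The ALA array of passage 7 bears on this: all 6 isoforms were higher at passage 7 with ALA, but 3 of 6 with ALA plus inhibitor, 4 with inhibitor and 3 in control. The mean signal of the 6 isoforms was 6.19 on that array and 5.46 to 5.91 on the other 11.

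In complex V, 15 of 17 members were lower at passage 8 (median -0.09) and 16 at passage 7 (median -0.12). Atp5b, the catalytic beta subunit, was the steadiest of all 91 genes, with 12.56 to 12.62 on 12 arrays (log2 signal, SD 0.019). Atp5a1, the alpha subunit, was between 12.02 and 12.29. The stalk and membrane subunits varied more: Atp5pb, subunit b of the outer stalk, had log2 signals of 10.52, 10.62, 10.53 and 10.72 at passage 6, 10.31, 10.29, 10.43 and 10.29 at passage 7, and 10.56, 10.44, 10.43 and 10.63 at passage 8. Passage 7 was the lowest without overlap with passage 6, by -0.27 ± 0.09 (log2, SE; unadjusted p = 0.0112). Atp5h, whose window is printed above, was -0.20 at passage 7 and -0.17 at passage 8, and overlapped with passage 6 at passage 8. The genes Atp5g1, Atp5g2 and Atp5g3 code for the same mature subunit c of the rotor. Atp5g1 was higher at passage 8 than at passage 6 by 0.09, while Atp5g2 differed by -0.10 and Atp5g3 by -0.01 (log2).

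Other genes of the same pathways were read from lists. Of 16 measured citric acid cycle genes (of 17), 12 were lower at passage 8 (median -0.13) and 16 at passage 7 (median -0.08). Pdhb, of the pyruvate dehydrogenase complex, was -0.32 ± 0.08 at passage 7 (log2, SE; unadjusted p = 0.00296) and -0.30 at passage 8. Of 12 measured electron-carrier genes (of 14), 9 were lower at passage 8 and 11 at passage 7, where Cycs, cytochrome c, was -0.28 (unadjusted p = 0.00546). Cycs read 11.28 on the ALA array of passage 7, against 11.52 to 11.54 on the other arrays of that passage and 11.68 to 11.80 at passage 6 (log2 signal). Of 37 assembly factors outside the name pattern (of 40), 26 were lower at passage 8 and 29 at passage 7. None of these 3 lists had a member past the adjusted threshold between a later passage and passage 6. Of 17 regulators of mitochondrial biogenesis (of 18), 12 were higher and 5 lower at passage 8 (median 0.06), unlike the members. At passage 7, 11 were lower (median -0.12). Among those lower at passage 8, Mterf1a, a mitochondrial transcription termination factor, fell by 0.44 at passage 8 (log2, limma adjusted p = 0.0389). Polg2, the accessory subunit of the mitochondrial DNA polymerase, was -0.43 there (adjusted p = 0.139).

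Adipocyte and preadipocyte markers stood mostly higher at passage 8. Of 14 adipocyte markers, 13 were higher at passage 8 than at passage 6, with a median log2 difference of 0.15, and Lep (leptin) rose by 0.62 (adjusted p = 0.0377). Their summed signal was 15.74 to 15.82 at passage 8, against 15.55 to 15.72 at passage 6 (log2). Of 9 measured preadipocyte and fibroblast markers (of 12), 8 were higher at passage 8, with a median of 0.29, and Pdgfrb, Col1a1 and Sox9 rose (adjusted p = 0.041, 0.0159 and 0.0378). Their summed signal was 13.67 to 13.80 at passage 8, against 13.25 to 13.54 at passage 6. At passage 7, 7 of 14 adipocyte markers and 7 of 9 preadipocyte markers were higher than at passage 6, with mean log2 signals over the list of 11.14 to 11.25 (11.05 to 11.36 at passage 6) and 9.12 to 9.54 (8.99 to 9.27 at passage 6). The part of either cell type in the passage differences was not tested. Of the 8 thermogenic markers, 5 lay below the array median on all arrays, and their summed signal was 9.26 to 9.42 at passage 8, against 9.18 to 9.53 at passage 6.

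No treatment comparison had a member past an adjusted p under 0.05 in limma, and neither did any other cluster (0% of clusters called in each). The study's own threshold, an unadjusted p under 0.01, was met by 1 member with ALA against control (0.525% of all clusters), 0 with inhibitor against control (0.855%), 1 with ALA plus inhibitor against ALA (1.47%), 0 with ALA plus inhibitor against inhibitor (0.728%) and 0 for the interaction (0.638%). At an unadjusted p under 0.05 the counts were 3, 0, 4, 2 and 1 in the same order, beside 3.41%, 4.32%, 7.27%, 3.56% and 3.42% of all clusters. A typical 95% interval of a member's difference reached 0.28 to each side on the log2 scale (median over members, with a range of 0.20 to 0.58), and 0.40 for the interaction (0.28 to 0.82). The ALA and inhibitor comparisons share the control arrays, and those of ALA plus inhibitor share arrays with them, so their values are given side by side without further comparison.

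**Figure D3:**
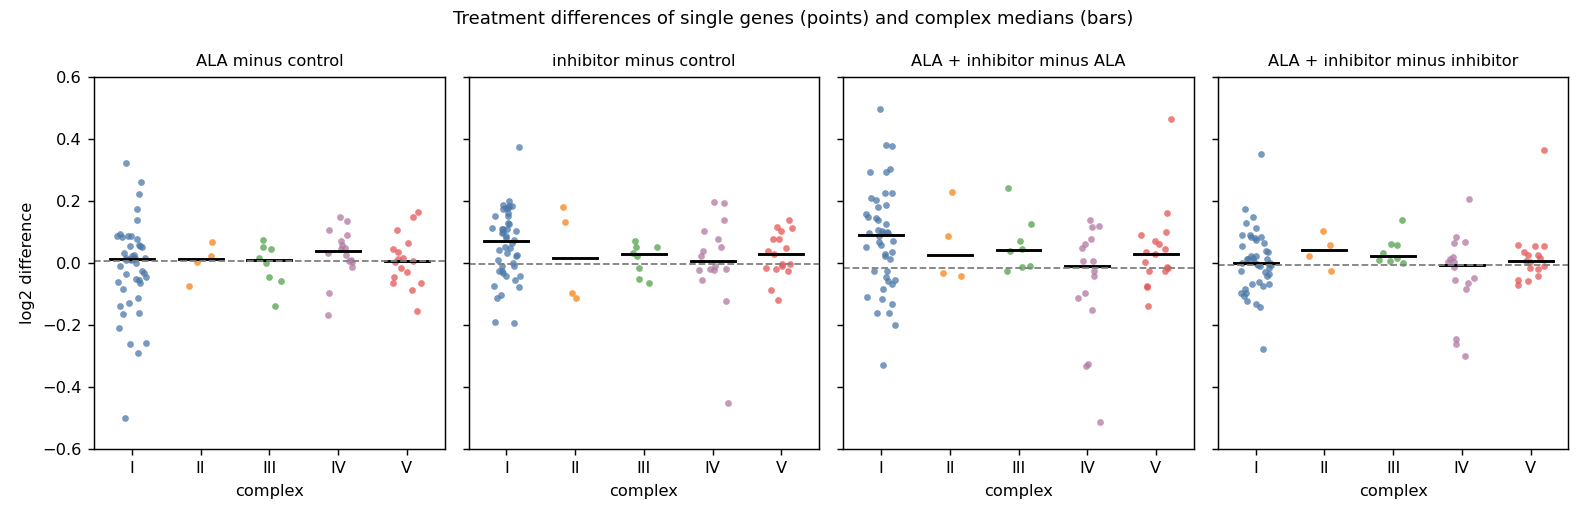
Differences in mean log2 signal between treatments (vertical axis) for each gene (points) by complex (horizontal axis), with complex medians as bars and the median of all clusters as a dashed line. Most points lie within 0.2 of 0 in all 4 panels, complex medians lie between -0.01 and 0.09, and the points farthest out are Ndufaf2 (-0.50, ALA minus control), Ndufaf5 (0.50) and Cox8c (-0.51, both in ALA plus inhibitor minus ALA).

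With ALA against control, 57 members were higher and 34 lower (52.2% of all clusters were higher), the median log2 difference was 0.0135, and 0.0076 over all clusters. The median was 0.0130 within passage 6, -0.0005 within passage 7 and -0.0110 within passage 8. Ndufaf2, an assembly factor that acts late in building complex I, had log2 signals of 5.84, 5.48 and 5.68 with ALA (passages 6, 7 and 8) and 6.32, 5.82 and 6.37 in control. ALA was the lower at each passage, but the groups overlapped, since the control array of passage 7 lay below the ALA array of passage 6. The difference was -0.50 ± 0.16 (log2, SE; unadjusted p = 0.00715, adjusted p = 1). Its signal lay near the middle of each array, with 2 of 12 values above the array median. No member reached an unadjusted p under 0.01 when ALA 7, control 6, control 8 or ALA plus inhibitor 7 was left out (each number is the passage). Of all clusters, 0.588%, 0.516%, 0.452% and 0.452% did in the same order. Without ALA 8, 1 member reached it (0.851% of all clusters), but that member was higher with ALA and so was not Ndufaf2. The direction over the members was not stable either: 70 were higher and 21 lower without ALA 7 (median 0.0486), 62 and 29 without control 6 (0.0573), 48 and 43 without control 8 (0.0024), 31 and 60 without ALA 6 (-0.0387), and 35 and 56 without control 7 (-0.0331).

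Ndufa11, a membrane-arm subunit of complex I, had 9.05, 9.07 and 8.96 with ALA and 8.68, 8.73 and 8.89 in control. All ALA arrays lay above all control arrays, by 0.26 ± 0.11 (log2, SE; unadjusted p = 0.03). Ndufaf8, which works with Ndufaf5 in complex I assembly, had 7.22, 7.28 and 6.96 with ALA and 6.93, 6.88 and 6.69 in control, again without overlap (0.32, unadjusted p = 0.0182). In all, ALA lay above control without overlap in 5 members (3.86% of all clusters) and below it in 0 (2.91%). In complex IV 13 of 16 members had a higher mean with ALA, with a median of 0.04 on the log2 scale. Within passages 6, 7 and 8 the numbers higher were 8, 11 and 7 of 16 (49.2%, 53.4% and 51.3% of all clusters). The medians there were 0.0013, 0.0625 and -0.0062, so the largest was at passage 7, where the deviating ALA array enters.

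With the inhibitor against control, 55 members were higher and 36 lower (49.2% of all clusters were higher), with a median log2 difference of 0.0399 against -0.0032 over all clusters. With arrays centred on their medians the split was 75 higher and 16 lower, and with quantile normalization 56 and 35. By passage the counts were uneven: 53 members were higher within passage 6 (48.5% of all clusters), 72 within passage 7 (49.1%) and 36 within passage 8 (51.6%). The smallest unadjusted p was that of Ndufaf5, a hydroxylase that modifies Ndufs7, at 0.0758. It had log2 signals of 6.45, 6.47 and 6.53 with the inhibitor and 6.08, 6.13 and 6.13 in control, so every inhibitor array lay above every control array, by 0.37 ± 0.19 (log2, SE). Sdha was 8.97, 8.93 and 8.84 with the inhibitor and 8.75, 8.68 and 8.77 in control, also apart, with a difference of 0.18 ± 0.12. The inhibitor lay above control without overlap in 5 members (5.88% of all clusters) and below it in 0 (4.97%). Cox6b2, an isoform known from testis, differed by -0.45 (unadjusted p = 0.106), with 1 array far below the rest: it read 3.81 with the inhibitor at passage 8, against 4.54 to 5.27 on the other 11.

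With ALA plus inhibitor against ALA, 57 members were higher and 34 lower (46.6% of all clusters were higher), with a median of 0.0456 on the log2 scale against -0.0173 over all clusters. Most of this lay in passage 7, where 64 members were higher with a median of 0.13, against 49 (0.0120) in passage 6 and 43 (-0.0043) in passage 8. The shares of all clusters that were higher there were 44.9%, 50.5% and 47.1% in the same order. Without the ALA array of passage 7 the median was -0.0029, with 45 members higher and 46 lower. Atp5e, the epsilon subunit of the ATP synthase, had log2 signals of 7.31, 7.26 and 6.94 with ALA plus inhibitor and 6.79, 6.74 and 6.58 with ALA. The groups did not overlap, and the difference was 0.46 ± 0.16 (log2, SE; unadjusted p = 0.0149, adjusted p = 0.653). Against the inhibitor alone, which gave 6.91, 7.04 and 6.47, the same arrays were higher by 0.36 (unadjusted p = 0.0467), and control gave 6.50, 6.70 and 6.88.

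Cox8c, an isoform of subunit VIII known from testis, had 5.53, 5.23 and 5.53 with ALA plus inhibitor and 5.81, 6.26 and 5.77 with ALA. The groups did not overlap, and the highest value was the ALA array of passage 7 (-0.51 ± 0.17, log2, SE; unadjusted p = 0.00949). Its signal was below the array median on all 12 arrays, and its unadjusted p was above 0.01 when any 1 of 9 of the 12 arrays was left out. The value of Cox8c, ALA plus inhibitor against ALA, was -0.36 without ALA 7 (unadjusted p = 0.0472) and -0.42 without ALA plus inhibitor 7 (unadjusted p = 0.0467). All 6 restricted isoforms were lower with ALA plus inhibitor than with ALA (median -0.33), and their within-passage medians were -0.19, -0.63 and -0.06 at passages 6, 7 and 8. Ndufaf2 was higher with ALA plus inhibitor, at 6.12, 6.08 and 5.94, against 5.84, 5.48 and 5.68 with ALA, with no overlap (0.38 ± 0.16, log2, SE; unadjusted p = 0.0306). Ndufaf5 differed by 0.50 (unadjusted p = 0.0234), but the passage 6 pair was nearly equal, at 6.69 with ALA plus inhibitor and 6.65 with ALA. ALA plus inhibitor lay above ALA without overlap in 4 members (4.75% of all clusters) and below it in 6 (6.85%).

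With ALA plus inhibitor against inhibitor, 51 members were higher and 40 lower (48.1% of all clusters were higher), with a median log2 difference of 0.0048 (-0.0068 over all clusters). The split was 35 and 56 with arrays centred on their medians, and 61 and 30 with quantile normalization. Ndufb8 had 8.47, 8.39 and 8.17 with ALA plus inhibitor and 8.10, 8.14 and 7.74 with inhibitor, with no overlap (0.35 ± 0.14, log2, SE; unadjusted p = 0.0304). The interaction asks whether ALA acted differently with the inhibitor present. Its smallest unadjusted p was for Ndufaf2 (0.58 ± 0.22, log2, SE; unadjusted p = 0.0223), and its median was 0.0111, with 49 members above 0 and 42 below (49% of all clusters were above 0). Without the ALA array of passage 7 the interaction had 29 members above 0 and 62 below, with a median of -0.0431.

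**Figure D4:**
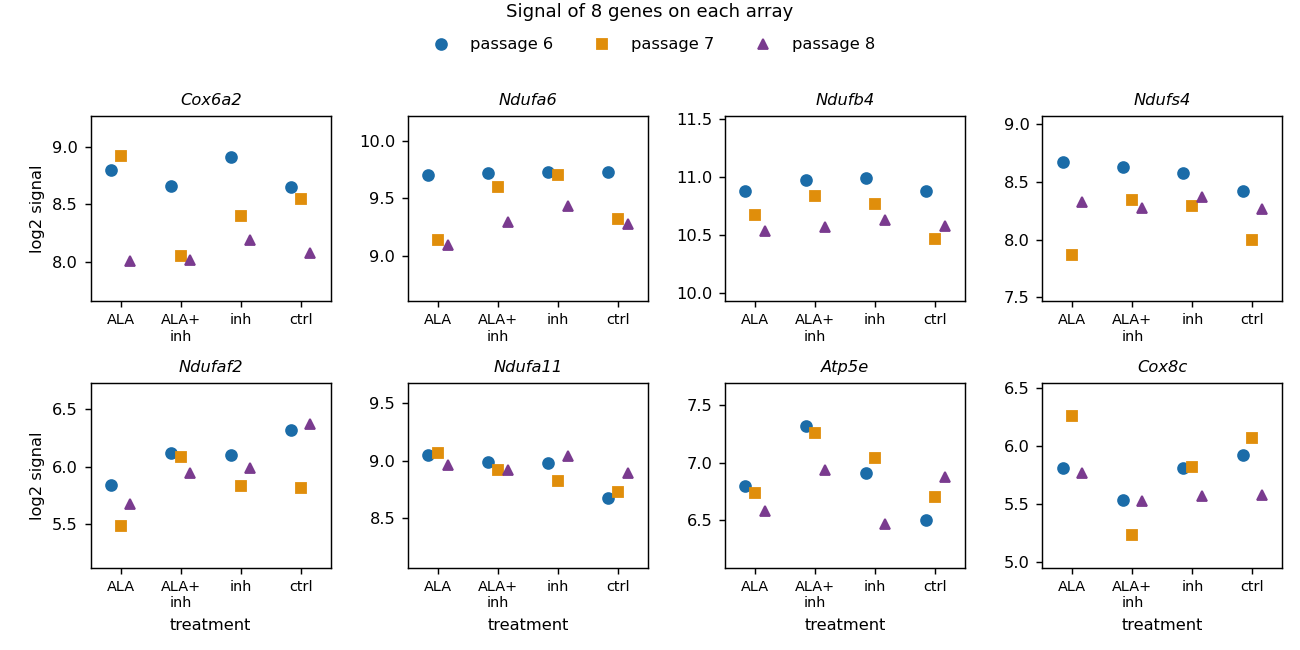
Log2 signal (vertical axes, all spanning the same range) of 8 genes on each of 12 arrays by treatment (horizontal axes), with symbols for passage. Cox6a2, Ndufa6, Ndufb4 and Ndufs4 are highest at passage 6 in every treatment except Cox6a2 with ALA (8.92 at passage 7), and Ndufaf2, Ndufa11, Atp5e and Cox8c show the treatment differences of up to 0.51 given in the text.

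The members differed widely in how much they varied. Their SD over the 12 arrays ran from 0.019 to 0.366 on the log2 scale, with a median of 0.132, against 0.209 over all clusters. Besides Atp5b, Uqcr10 (0.062) and Ndufv1 (0.065) were the steadiest. Cox6b2 (0.366), Cox6a2 (0.356) and Ndufaf5 (0.321) varied most. The ALA array of passage 7 was the lowest of all 12 in 31 genes and the highest in 11, and the control array of passage 7 the lowest in 19. Of the 31 genes lowest on that ALA array, 26 were structural subunits, and of the 11 highest there, 5 were restricted isoforms.
Under treatment, the other lists of the pathway had 0 members past the adjusted threshold in every comparison with limma. With ALA plus inhibitor against ALA, 26 of 37 assembly factors outside the pattern, 10 of 16 citric acid cycle genes and 11 of 17 biogenesis regulators were higher, with medians of 0.10, 0.04 and 0.04 on the log2 scale. With the inhibitor against control, 0 of 9 preadipocyte markers were higher, with a median of -0.17, and 3 of 14 adipocyte markers (median -0.08). With ALA plus inhibitor against ALA, 8 of 9 preadipocyte markers were lower (median -0.28), and 10 of 14 adipocyte markers (median -0.09). Whether these markers bear on the members was not tested.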

How the data were processed

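RNA from 12 cultures was hybridised to 1 mouse transcript-level array each. The authors deposited log2 signals made with RMA (background correction, normalization and probe summary), per the submitters' processing notes; no software version is given there. Gene symbols came from the platform annotation. Differences were fitted to all 22104 clusters with limma 3.58.1 (R 4.3.3): 1 coefficient per treatment (8 residual degrees of freedom), or passage plus treatment for passages (6). Every unadjusted or adjusted p is limma's moderated test, two-sided, adjusted by Benjamini-Hochberg over all clusters; calls used an adjusted p under 0.05, with the study's unadjusted 0.01 beside. The fit was tested on simulated data. Members and lists were chosen with earlier results of these data known. Named members were the 3 with the smallest p per direction and comparison, extremes of SD and brightness, and a fixed set; others, such as Ndufs7, Ndufb4b, Ndufaf7, Atp5h and Atp5pb, were chosen after their values were seen. Replicate numbers are passages. Deviations of every passage pair correlated above 0.1 only for ALA plus inhibitor against ALA (r = 0.163, 0.163 and 0.235). For ALA against control r was 0.013, 0.338 and 0.459 at passages 6, 7 and 8. In Results, the p-values, SEs and intervals of all treatment comparisons come from the fit without a passage block, which ignores any such pairing. With the block, the member counts of ALA plus inhibitor against ALA at an adjusted p under 0.05 or an unadjusted p under 0.01 stayed the same. Of all clusters, 2.54% then had an unadjusted p under 0.01, against 1.47% without the block. Alternatives were other normalizations, variance priors, weights, filters and left-out arrays. The number of arrays limits precision.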

Additional observations from a re-analysis of the deposited data

Results flagged for a closer look

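In 102 groups of 4 arrays of 1 passage (34 genes or gene sets), each array was checked for a large distance from the other 3. Chance flags 1 in 20 of such groups where they are independent and unselected. The genes were picked by their p-values in the same data, and the groups share arrays, so that rate does not apply here. In 6 groups 1 array lay far from the other 3. At passage 7 the ALA array held 2 of them: Ndufa4l2, an isoform linked to hypoxia, read 6.75 there and 6.08 to 6.19 on the other 3 arrays (log2 signal), and Ndufa5, a complex I subunit, read 9.24 there and 9.46 to 9.50 on the others. That array stood apart over all clusters as well. At passage 8 the inhibitor array read 3.81 for Cox6b2, against 4.70 to 4.78 on the others, and its mean over complex V was 10.60, against 10.65 on each of the others. Also at passage 8, Cox7a2 read 9.73 with ALA plus inhibitor, against 9.82 to 9.83 on the others, and Uqcrh read 10.82 with ALA, against 10.79 on each of the others.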

How the results depend on the processing

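No member passed an adjusted p under 0.05 in limma for any treatment comparison under any alternative. With passage as a replicate block the members at an unadjusted p under 0.01 numbered 2 for ALA against control (0.841% of all clusters), 1 for ALA plus inhibitor against inhibitor (1.06%) and 1 for the interaction (0.936%), and the block changed no other count of members. ALA against control and ALA plus inhibitor against inhibitor each had a pair of arrays correlated under 0.1 (r = 0.013, 0.338 and 0.459, and 0.138, 0.092 and 0.268). With only the 6 arrays compared the counts were 0 for ALA against control (0.271% of all clusters), 1 for inhibitor against control (0.982%) and 0 for ALA plus inhibitor against ALA (0.851%). With array weights they were 0 for ALA against control (0.615% of all clusters, median 0.0306), 11 for passage 8 against 6 (7.98%) and 1 for passage 8 against 7 (7.85%). At adjusted p, 3 members and 690 of all clusters were called for passage 8 against 6. The medians with weights were -0.0204 for the interaction, 0.0135 for ALA plus inhibitor against ALA and -0.0027 for passage 8 against 7. With an intensity trend the counts were 0 for ALA against control (0.348% of all clusters) and 0 for ALA plus inhibitor against ALA (1.57%). For passages they were 21 for 8 against 6 (8.28%), 22 for 7 against 6 (3.2%) and 4 for 8 against 7 (9.84%). At adjusted p the trend gave 14 members for passage 8 against 6, beside 1163 of all clusters. Centring on array medians gave 2 for ALA plus inhibitor against ALA (1.39% of all clusters, median 0.0782), with medians of -0.0175 for ALA plus inhibitor against inhibitor and -0.0054 for the interaction. Quantile normalization gave 11, 3 and 1 for passages 8 against 6, 7 against 6 and 8 against 7 (6.13%, 1.93% and 6.54% of all clusters), and a median of 0.0324 for ALA against control. At adjusted p it gave 1 member for passage 8 against 6, which was not Cox6a2, beside 405 of all clusters. Without the dimmest 30% of clusters passage 8 against 6 had 11 of 89 members (9% of the 15473 clusters kept). At adjusted p it had 3 of them, beside 719 of the clusters kept. Structural subunits alone gave 0 for ALA against control, 0 for ALA plus inhibitor against ALA, and 0 at adjusted p for passage 8 against 6. Quantile normalization with ALA at passage 7 left out, chosen after seeing the data, gave 0 for ALA against control (median 0.0409), 0 for ALA plus inhibitor against ALA, and an interaction median of -0.0060. For passages it gave 16 for 8 against 6 (7.88% of all clusters), 3 for 7 against 6 (1.55%) and 1 for 8 against 7 (4.84%). At adjusted p, passage 8 against 6 then had 3 members, beside 627 of all clusters.

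Leaving out arrays or passages in turn gave these ranges. For ALA against control, 0 to 1 members reached an unadjusted p under 0.01, with medians of -0.0387 to 0.0573. For inhibitor against control it was 0 to 1, with medians of -0.0008 to 0.0893. For ALA plus inhibitor against ALA it was 0 to 2 (-0.0035 to 0.1014), against inhibitor 0 to 0 (-0.0324 to 0.0503), and for the interaction 0 to 1 (-0.0466 to 0.0627). For passage 8 against 6 it was 3 to 10 (-0.1410 to -0.1049), with 0 to 2 at adjusted p. For 7 against 6 it was 1 to 6 (-0.1581 to -0.1190), and for 8 against 7 it was 0 to 3 (-0.0181 to 0.0330). Shares of all clusters at that p were 4.15% to 7.67%, 1.33% to 2.4% and 4.18% to 7.79% for these passage comparisons in turn. For the treatment comparisons, in the order above, the shares were 0.371% to 1.27%, 0.507% to 1.33%, 0.611% to 2.82%, 0.448% to 1.05% and 0.416% to 0.955%. Counts of higher members shifted with the array left out, so many members near 0 turned sign; among the single values followed through every alternative, 2 did. The value of Cox6b2, passage 7 against passage 6, ran from -0.0079 (without ALA at passage 6) to 0.3966, and that of Ndufb5, ALA against control, from -0.4716 to 0.0052 (without ALA at passage 7). The cause of these shifts was not tested.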
